A study of Mus musculus with 12 samples.

Results

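Satellite repeat loci are the stretches of the mouse genome annotated to the tandemly repeated satellite family. They were taken as every locus whose family name was exactly Satellite in the deposited table of repeat loci, leaving out chromosomes X and Y and the separate family of Y-chromosome satellite. This gave 64617 loci of 4929385 repeat loci in the table (1.31%), of which 64467 lay on the 19 autosomes and 150 on unplaced scaffolds. Satellite DNA is built of short units repeated head to tail. In the mouse, major satellite fills the pericentromeric heterochromatin and minor satellite the centromere, while shorter satellite stretches are scattered along the chromosome arms. Transcripts of satellite arrays stay close to the chromatin they come from and have been studied in embryonic stem cells. The names in the table stop at the family, so major, minor and other satellite could not be separated, and no genome of the deposited build was at hand to print their sequences.

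The study profiled N6-methyladenosine (m6A), a methyl mark on adenosine in RNA, in the RNA bound to chromatin of E14TG2a cells, a mouse embryonic stem cell line grown with serum, LIF and the inhibitors PD0325901 and CHIR99021. The 3 genotypes were Alkbh5 del-cIDR (ΔcIDR below), which lacks an intrinsically disordered region of ALKBH5, Alkbh5 KO, and WT. ALKBH5 is an enzyme that removes m6A from RNA. The series has 12 samples, and the table holds 6 libraries, 2 per genotype, read here as the immunoprecipitated ones. The column names say neither immunoprecipitated nor input, KI in the names was taken as ΔcIDR because WT and KO are named elsewhere, and both KO columns are named KO6 and may come from 1 line. With 0 columns read as input, a difference can lie in m6A, in the amount of RNA or in the number of DNA copies, and these cannot be told apart. Nothing in the labels says that the replicates came from separate cultures, so p-values rest on the spread between these libraries, which may be technical. The limma fits below also draw the spread of each locus or family toward that of the others tested. Their SEs and p-values are thus not the spread of 1 locus's own replicates. The stem cell identity of the cultures could not be checked against marker genes, because the tables carry no gene names.

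Each deposited value is a read count multiplied by a factor of its library, set so that the m6A spike-in RNA has the same signal in every library. That factor rested on 814 and 849 spike-in reads in ΔcIDR, 1379 and 1870 in KO, and 1172 and 1106 in WT. Reads of the row named as unmodified spike-in outnumbered those of the m6A spike-in in all 6 libraries (1729 to 5127 reads against 814 to 1870). Depth ranged from 20922839 to 26267351 repeat reads per library. Each read was worth 3.33 and 3.20 units of signal in ΔcIDR, 1.97 and 1.45 in KO, and 2.32 and 2.45 in WT. On this deposited scale the median tested repeat locus differed between genotypes, by −0.29 in log2 for KO minus WT, 0.34 for ΔcIDR minus WT and 0.63 for ΔcIDR minus KO. Results are also given after centring, which subtracts each library's median over the tested loci. On the centred scale, the repeat loci of all families together stood, on chromosomes 6 and 8, higher in KO than in WT by a median of 0.31 and 0.28, and those on chromosome 11 by 0.06, while the other 16 autosomes had medians from −0.13 to −0.04.

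Most satellite loci gave no signal. In all, 48910 of 64617 loci (75.7%) had no read in any library, and a mean of at least 10 reads per library was reached by 1917 loci, 1914 of them on autosomes. Those 1914 loci were tested one by one. They are 2.97% of the autosomal satellite loci, whereas 8.48% of all autosomal repeat loci reached the same mean. The 1917 loci held 81.8% of the satellite reads. At the threshold, 110 autosomal loci had 60 to 64 reads over the 6 libraries and passed, with a median length of 99.5 bp, and 108 loci had 55 to 59 reads and did not, with a median of 113.5 bp. The reads were spread over many places. The locus with the most reads held 1.40% of all satellite reads, the 8 richest held 7.70%, the 100 richest held 29.3%, and 355 loci were needed to reach 50%. Loci closer than 5 kb were counted as 1 cluster, and the 1914 tested loci fell into 1752 clusters, of which 1621 held a single tested locus. The cluster with the most tested loci held 7 of them, on chromosome 7 from 19162359 to 19188632 (GRCm39, as deposited).

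The signal came from short scattered stretches rather than from long arrays. Loci below 250 bp made up 60230 of the 64617 members and held 81.3% of satellite reads, and the 4251 loci of 250 to below 1000 bp held 17.4%. The 127 loci of 1000 to below 5000 bp held 1.24% and the 9 loci of 5000 bp or more held 0.0911%. The most common length was 81 bp, shared by 1163 loci, and 15851 loci (24.5%) were 70 to 90 bp long. Per length, as RPKM computed here from the reads with all repeat reads as the total, loci below 250 bp stood between 0.605 and 0.689 in the 6 libraries. Loci of 250 to below 1000 bp stood between 0.442 and 0.673, and loci of 1000 to below 5000 bp between 0.205 and 0.265. Those of 5000 bp or more stood between 0.00642 and 0.0728. All repeat loci together had an RPKM of 0.889, so every satellite length class lay below the average repeat. How reads that match several places in the genome were treated is not given in the sources used here, and levels at long arrays of near-identical units depend on that step.

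The second deposited table lists genomic intervals, and a locus was counted as under an interval where at least 1 base overlapped. How the intervals were called, and on which libraries, is not given in the sources used here. Of 68032 intervals off chromosomes X and Y, 1420 held any satellite base and 753 were at least 50% satellite. In all, 1676 satellite loci (2.59%) lay under an interval, and these held 31.6% of satellite reads. Per length they had an RPKM of 3.38 and 3.07 in ΔcIDR, 2.43 and 2.68 in KO, and 3.05 and 3.24 in WT. Loci outside intervals had 0.467 and 0.428 in ΔcIDR, 0.419 and 0.439 in KO, and 0.436 and 0.471 in WT. The level under intervals was thus lower in both KO libraries than in any other library. Outside them the KO libraries overlapped with both other genotypes. Shares of reads and levels under intervals were computed for satellites alone. Intervals called on these same reads would hold many reads by that choice.

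Summed over the genome, satellite loci took a slightly smaller part of the repeat reads in KO. Their part was 0.523% and 0.478% in ΔcIDR, 0.439% and 0.466% in KO, and 0.483% and 0.519% in WT. Both KO libraries lay below all 4 others. The difference was −0.15 ± 0.07 in log2 for KO minus WT and 0.15 ± 0.08 for ΔcIDR minus KO (SE, n = 2 per genotype). ΔcIDR and WT overlapped, at −0.00 ± 0.08. Other families also took a smaller share in KO than in WT without overlap. ERVK, a family of endogenous retroviruses, stood at −0.06 ± 0.02 and simple repeats at −0.11 ± 0.04. A fit of the shares of autosomal repeat reads did not call satellites for KO minus WT (limma adjusted p = 0.194). Nor did it for ΔcIDR minus KO (limma adjusted p = 0.0905). With 2 libraries against 2, an exact permutation test cannot reach 0.05.

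On the deposited scale the summed satellite signal was 364953 and 331169 in ΔcIDR, 226754 and 157966 in KO, and 244867 and 278266 in WT, and no pair of genotypes overlapped. Family sums were tested together with limma over 53 repeat families. The summed satellite signal was 0.88 ± 0.30 higher in log2 in ΔcIDR than in KO (limma adjusted p = 0.0209), 1 of 14 families called in that comparison. The median family differed by 0.64, ERVK by 0.79 and simple repeats by 0.96. For KO minus WT the satellite value was −0.46 ± 0.30 (limma adjusted p = 0.661), with 0 of 53 families called by limma and 1 at an unadjusted p under 0.05. For ΔcIDR minus WT it was 0.42 ± 0.30 (limma adjusted p = 0.427), with 0 families called and 4 at an unadjusted p under 0.05. The call between ΔcIDR and KO was lost once libraries were centred on the median family, where the satellite difference was 0.11, and it turned to −0.18 on the scale of the ERCC spike-in RNAs. It was also lost when either ΔcIDR library or either WT library was left out.

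**Figure D1:**
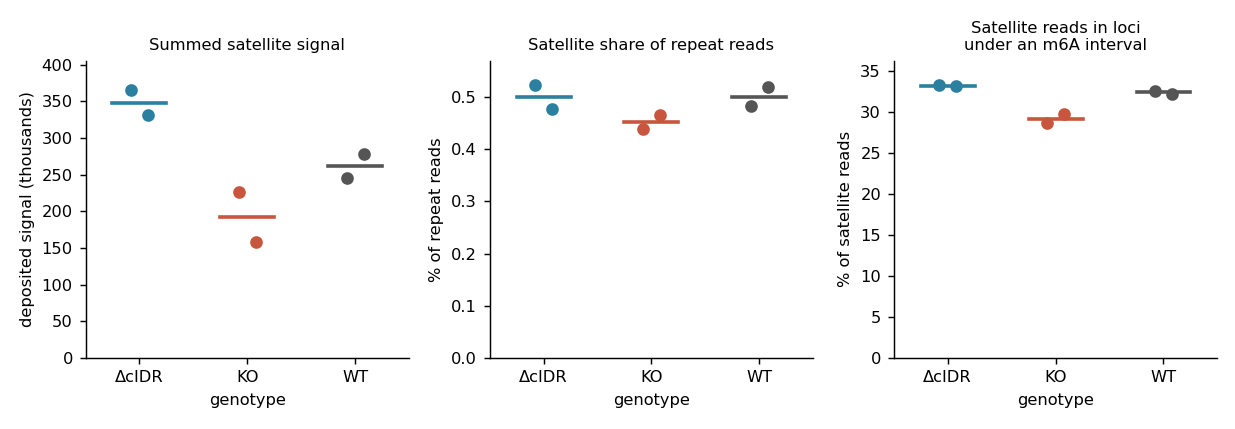
Summed satellite loci in each library, with ΔcIDR, KO and WT from left to right (points, 2 libraries per genotype; bars, means). The deposited signal is lowest in KO, the share of repeat reads separates KO from the other genotypes by a small gap, and the percentage of satellite reads in loci under an interval is 28.7 and 29.8 in KO against 32.3 to 33.4 in the 4 other libraries.

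The part of satellite reads that fell under intervals also separated KO from the other genotypes. It was 33.4% and 33.2% in ΔcIDR, 28.7% and 29.8% in KO, and 32.7% and 32.3% in WT. None of the 3 genotypes overlapped, with KO lowest and ΔcIDR highest. The log2 difference was −0.15 ± 0.03 for KO minus WT, 0.19 ± 0.03 for ΔcIDR minus KO and 0.04 ± 0.01 for ΔcIDR minus WT (SE, n = 2 per genotype). This percentage does not depend on the spike-in scale. It was not computed for all repeat loci, so whether the order of genotypes is particular to satellites was not tested.

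Locus by locus, satellites were called lower in KO than in WT more often than the average repeat. Of 1914 loci, 100 (5.22%) fell in KO at a limma adjusted p of 0.05, where 2.56% of all 379986 tested repeat loci did, and 6 (0.313%) rose, where 0.175% of all did. ERVK loci fell at 5.65% and simple repeats at 3.24%. The median satellite locus had a log2 difference of −0.44, where the median of all loci was −0.29. After centring, 101 satellite loci fell (5.28%, all loci 2.80%), 23 rose (1.20%, all loci 1.47%), and the median was −0.18 where that of all loci was −0.03. The 2 KO libraries lay below both WT libraries at 816 satellite loci (42.6%, all loci 33.5%) and above both at 126 (6.58%, all loci 8.11%). The 100 loci that fell lay in 100 separate clusters on 18 chromosomes and had a median length of 178.5 bp. Their log2 differences ran from −3.67 to −1.07 with a median of −1.78, and 85 of them were also called after centring. Their median for ΔcIDR minus WT was 0.36, and 0.01 after centring. At 6 of the 100 loci that fell, the minimum mean for testing was reached only through the WT libraries. Of the 106 called loci, 3 of the 6 that rose and 9 of the 100 that fell lay on chromosomes 6, 8 and 11. Those chromosomes hold 316 of the 1914 tested satellite loci. A fit without them called 97 lower (6.07%, all loci 3.08%) and 3 higher (0.188%, all loci 0.140%). The count depended on single libraries, and so did that of all repeat loci. Without the first KO library 298 satellite loci were called (15.6%, all loci 12.7%), and without the second 41 (2.14%, all loci 1.23%). Without the first WT library 22 were called (1.15%, all loci 0.355%), and without the second 8 (0.418%, all loci 0.211%). Without the first and the second ΔcIDR library the counts were 54 (2.82%, all loci 1.30%) and 58 (3.03%, all loci 1.31%).

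**Figure D2:**
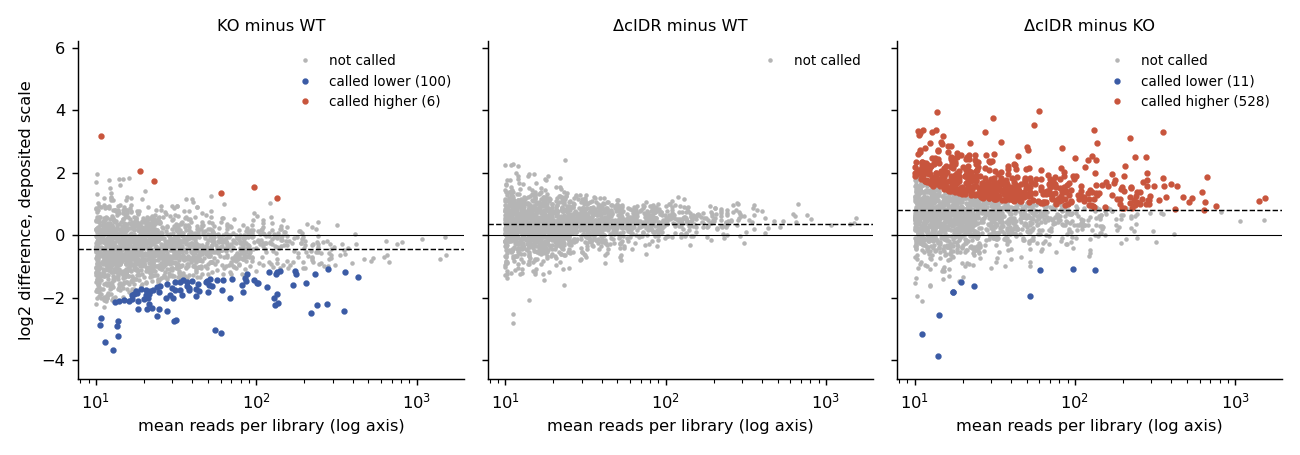
Log2 differences on the deposited scale for the 1914 tested satellite loci against their mean reads per library (log axis), each point 1 locus, coloured where limma called it. The dashed line is the satellite median, at −0.44 for KO minus WT, 0.37 for ΔcIDR minus WT and 0.80 for ΔcIDR minus KO; the middle panel holds no called locus.

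Falls in KO were more frequent under intervals. There, 57 of 449 tested satellite loci (12.7%) fell, where 5.43% of all repeat loci under intervals did. Outside intervals 43 of 1465 fell (2.94%), close to the 2.40% of all repeat loci outside. Satellite loci of 250 to below 1000 bp under an interval had the highest share of the classes examined with over 100 loci, 29 of 142 (20.4%, all repeat loci of that class 9.40%). Loci of that length outside intervals fell at 5 of 178 (2.81%, all repeat loci 3.61%), and loci below 250 bp under an interval at 28 of 293 (9.56%, all repeat loci 6.31%). After centring the share under intervals was 13.6% (all repeat loci 6.65%) and that outside 2.73% (2.58%). Depth differed between these classes, with a median of 31.5 reads per library for satellite loci under intervals and 20.7 outside, against 40.8 and 24.2 for all repeat loci. Its part in the shares was not tested.

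**Figure D3:**
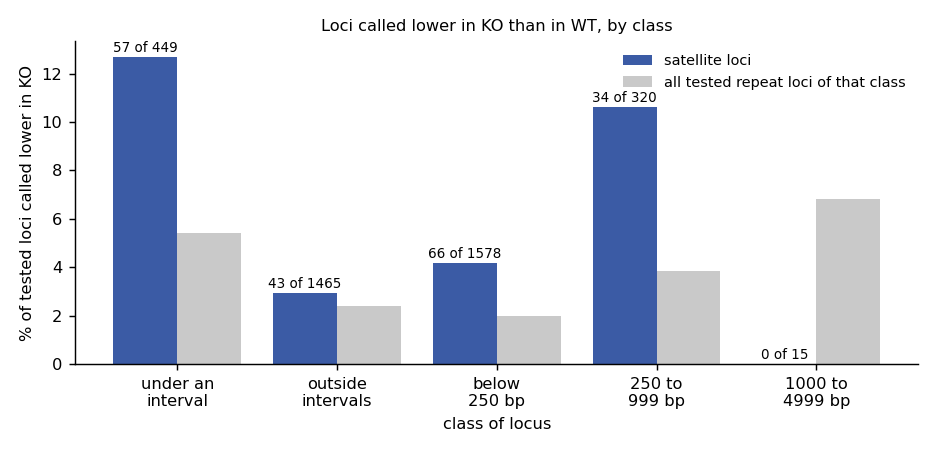
Percentage of tested loci called lower in KO than in WT, for satellite loci (left bar of each pair, with their counts) and for all tested repeat loci of the same class (right bar). The satellite share is 12.7% under intervals and 2.94% outside, and 10.6% at 250 to below 1000 bp; none of the 15 satellite loci of 1000 to below 5000 bp was called.

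The strongest falls were seen at loci that each lay under an interval of its own. A 121-bp satellite on chromosome 5, 113104505 to 113104625, under an interval from 113104521 to 113104734, had 109 and 83 reads in ΔcIDR, 14 and 8 in KO, and 67 and 80 in WT. Its KO libraries lay far below both other genotypes, and it fell by 3.14 ± 0.42 in log2 against WT (limma adjusted p = 4.9e-10) and by 2.87 after centring. A 241-bp satellite on chromosome 4, 138274126 to 138274366, had 77 and 77 reads in ΔcIDR, 11 and 13 in KO, and 57 and 99 in WT. It fell by 3.03 ± 0.42 against WT (limma adjusted p = 3.1e-09). The 3 remaining loci among the 5 largest falls had few reads. On chromosome 19, 28255142 to 28255538, they were 14 and 12 in ΔcIDR, 4 and 0 in KO, and 18 and 29 in WT. On chromosome 11, 72358839 to 72358997, they were 18 and 15 in ΔcIDR, 2 and 2 in KO, and 13 and 32 in WT. On chromosome 4, 130695152 to 130695444, they were 15 and 12 in ΔcIDR, 1 and 2 in KO, and 19 and 19 in WT, too few in KO for a fold. These last 3 loci reached the minimum mean for testing only through the WT libraries, so they are given as reads alone. None of the 5 was called between ΔcIDR and WT, where no tested satellite locus was called.

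The 6 loci that rose lay on 6 chromosomes, and 2 of them were under an interval. At an 82-bp satellite on chromosome 6, 108642390 to 108642471, there were 39 and 58 reads in ΔcIDR, 219 and 171 in KO, and 37 and 59 in WT. It rose by 1.54 ± 0.38 in log2 against WT (limma adjusted p = 0.0066), on a chromosome whose repeats had a centred median of 0.31, and its 5 tested neighbours within 10 kb had a centred median of 1.44. An 82-bp satellite on chromosome 14, 27148926 to 27149007, had 9 and 16 reads in ΔcIDR, 55 and 39 in KO, and 12 and 7 in WT, and rose by 1.75 ± 0.53 (limma adjusted p = 0.0395). A 59-bp satellite on chromosome 8, 85648556 to 85648614, had 33 and 24 reads in ΔcIDR, 123 and 116 in KO, and 27 and 40 in WT, and rose by 1.34 ± 0.41 (limma adjusted p = 0.0452). At 2 of the 6 loci the mean of 10 reads was reached only through the KO libraries, so a locus with few KO reads could not have been tested there, and they are given as reads alone. They are a 255-bp satellite near the start of chromosome 12, 3159867 to 3160121, with 7 and 8 reads in ΔcIDR, 34 and 51 in KO, and 7 and 6 in WT, and a satellite on chromosome 11, 101667266 to 101667395, with 8 and 5 reads in ΔcIDR, 23 and 25 in KO, and 4 and 0 in WT.

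Differences between KO and WT at satellite loci went along with those of the repeats around them. For each tested satellite locus with at least 3 other tested repeat loci within 10 kb, the median centred log2 difference of those neighbours was taken. Across 1799 such satellite loci the Pearson correlation of KO minus WT was 0.64 (Spearman 0.60), and across 1774 loci with neighbours taken only from 1 to 10 kb away it was 0.62. For ΔcIDR minus WT the same correlations were 0.33 (Spearman 0.33) and 0.32 (Spearman 0.31). For ΔcIDR minus KO they were 0.71 (Spearman 0.67) and 0.68 (Spearman 0.65). They were not computed for loci of other families, so whether satellites differ from other repeats in this was not tested. A locus and its neighbours share the libraries and a stretch of chromosome, so these values describe the table and carry no p. The 90 loci that fell in KO and had such neighbours had a centred median of −1.50, where their neighbours had −0.79, and the neighbourhood was below 0 at 87 of the 90. These loci were picked on their own values and their neighbours were not. The gap of the 2 medians therefore cannot show whether satellites fell more than their surroundings. All 4 loci that rose and had neighbours lay in neighbourhoods above 0. Over all 1799 loci the satellites had a centred median of −0.17 and their neighbours −0.07, so most neighbourhoods lay below 0. The share of neighbourhoods below 0 was not counted over all 1799 loci, nor around fallen loci of other families. Around the chromosome 5 locus the 14 neighbours had a centred median of −1.42, and around the chromosome 4 locus at 138274126 the 9 neighbours had −1.88. An ERVK locus lay within 200 bp of 193 of the 1914 tested satellites (10.1%). Of these, 16 fell in KO (8.29%), and of the 1721 without one, 84 did (4.88%), while 40.4% and 21.6% of the 2 sets lay under an interval. Of all tested repeat loci 2.56% fell, but these were not split by a nearby ERVK locus, so a link to ERVK was not tested.

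**Figure D4:**
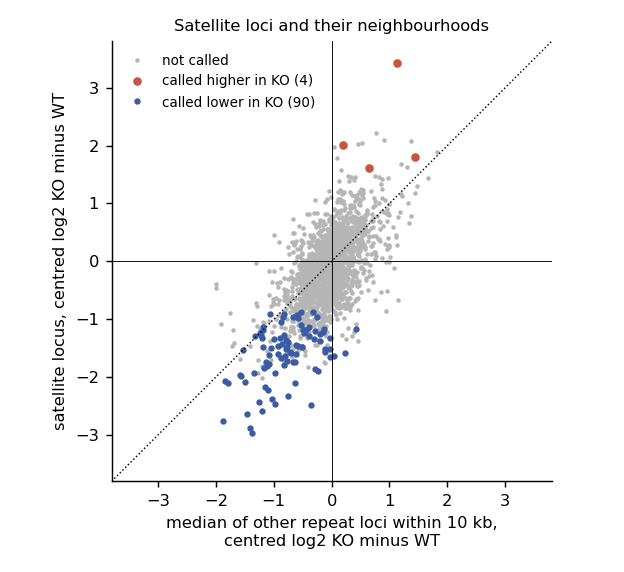
Centred log2 difference of KO minus WT at 1799 satellite loci (vertical axis) against the median of the other repeat loci within 10 kb (horizontal axis), each point 1 satellite locus; the dotted line marks equal values. The points run along the diagonal, and the 90 called lower lie mostly below it, at a median of −1.50 against −0.79 for their surroundings. They were picked on the vertical axis, so that gap follows in part from the choice.

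Between ΔcIDR and WT no satellite locus was called by limma, on the deposited scale or after centring. Of all repeat loci, 0.0424% were called higher and 0.0150% lower (centred, 0.0529% and 0.0600%), so a count of 0 is near the background. At an unadjusted p under 0.05 there were 228 of 1914 satellite loci (11.9%), where 10.1% of all loci were. edgeR called 1 satellite locus on the deposited scale (0.0522%, all loci 0.0676%) and 2 with TMM scaling (0.104%, all loci 0.164%), again near the background. The median satellite locus differed by 0.37 where that of all loci was 0.34, and by 0.02 after centring where all loci stood at −0.01. Both ΔcIDR libraries lay above both WT libraries at 797 loci (41.6%, all loci 42.9%) and below both at 93 (4.86%, all loci 6.16%). The smallest p belonged to a 126-bp satellite on chromosome 19, 9008019 to 9008144, with 7 and 103 reads in ΔcIDR, 13 and 6 in KO, and 6 and 7 in WT, so the difference came from 1 of the 2 ΔcIDR libraries. Next were a 204-bp satellite on chromosome 11, 50723430 to 50723633, with 26 and 23 reads in ΔcIDR, 20 and 23 in KO, and 5 and 14 in WT, and a 78-bp satellite on chromosome 4, 146061102 to 146061179, with 21 and 61 in ΔcIDR, 8 and 14 in KO, and 19 and 9 in WT. When either KO library was left out, 37 satellite loci were called (1.93%), close to the share of all loci called then (1.92% and 1.94%).

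Between ΔcIDR and KO, 528 satellite loci (27.6%) were higher in ΔcIDR, where 19.5% of all repeat loci were, and 11 (0.575%) were lower, where 0.754% of all were. After centring the counts were 206 higher (10.8%, all loci 7.00%) and 65 lower (3.40%, all loci 5.19%). At 34 of the 528 loci higher on the deposited scale, the mean of 10 reads was reached only through the ΔcIDR libraries. ΔcIDR libraries lay above both KO libraries at 1186 loci (62.0%, all loci 53.3%) and below both at 76 (3.97%, all loci 5.38%). This comparison uses the same KO libraries as that of KO with WT, so its values stand beside the earlier ones and are not a second observation. The 539 calls in both directions together were 28.2% of the satellite loci, where 20.3% of all loci were called. They became 111 without the first ΔcIDR library (5.80%, all loci 4.17%), 212 without the second (11.1%, all loci 5.72%), 767 without the first KO library (40.1%, all loci 35.8%) and 272 without the second (14.2%, all loci 9.32%). On the ERCC scale 95 satellite loci were higher in ΔcIDR (4.96%, all loci 2.74%) and 201 lower (10.5%, all loci 16.2%), with a satellite median of −0.22 where that of all loci was −0.39, so the balance of all repeat loci turned over too. The loci on chromosome 5 at 113104505 and chromosome 4 at 138274126 were again among the largest, at 3.96 ± 0.42 and 3.51 ± 0.42 in log2 (limma adjusted p = 1.5e-17 and 1.4e-13). A 158-bp satellite on chromosome 2, 27861237 to 27861394, outside any interval, had 60 and 43 reads in ΔcIDR, 9 and 4 in KO, and 30 and 39 in WT, a log2 difference of 3.76 ± 0.48 between ΔcIDR and KO (limma adjusted p = 5.9e-12). A 170-bp satellite on chromosome 10, 58676114 to 58676283, had 27 and 22 reads in ΔcIDR, 6 and 0 in KO, and 12 and 16 in WT. It reached the mean of 10 reads only through the ΔcIDR libraries, so it is given as reads alone.

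Of the 11 loci lower in ΔcIDR than in KO, 6 lay on chromosomes 6, 8 and 11, which hold 316 of the 1914 tested satellite loci. Repeats there stood higher in KO than in WT by centred medians of 0.31, 0.28 and 0.06. A fit without those chromosomes called 5 satellite loci lower (0.313%, all loci 0.548%), where the full fit called 11 (0.575%, all loci 0.754%). At 5 of the 11 the mean of 10 reads was reached only through the KO libraries. The next 4 loci are among these and are given as reads alone. A 48-bp satellite on chromosome 6, 94000603 to 94000650, had 2 and 0 reads in ΔcIDR, 37 and 32 in KO, and 7 and 6 in WT. A 255-bp satellite on chromosome 2, 65683743 to 65683997, had 2 and 0 in ΔcIDR, 23 and 19 in KO, and 11 and 12 in WT. A 221-bp satellite on chromosome 10, 75426223 to 75426443, had 1 and 5 reads in ΔcIDR, 31 and 34 in KO, and 6 and 8 in WT. An 80-bp satellite on chromosome 9, 68866153 to 68866232, had 6 and 3 reads in ΔcIDR, 29 and 36 in KO, and 13 and 17 in WT. In reads, the KO libraries lay above both other genotypes at all 4 loci.

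None of the 8 satellites with the most reads was called against WT on the deposited scale, in ΔcIDR or in KO (all loci 0.0574% and 2.73%). Between ΔcIDR and KO, 5 of the 8 were higher in ΔcIDR (3 of the 8 after centring). Of all tested repeat loci 19.5% were (7.00% after centring), and 31.4% with a minimum mean of 30 reads. No share was taken for repeat loci as deep as these 8, so their count was not set against such loci. The richest, 78 bp on chromosome 4 from 145263536 to 145263613, had 1572 and 1761 reads in ΔcIDR, 1391 and 1392 in KO, and 1615 and 1465 in WT. The next, 136 bp on chromosome 6 from 122713273 to 122713408, lay outside any interval and had 1279 and 1361 reads in ΔcIDR, 1932 and 1740 in KO, and 1370 and 1359 in WT. A 383-bp locus on chromosome 14, 75565034 to 75565416, had 1829 and 1064 reads in ΔcIDR, 1270 and 1245 in KO, and 1218 and 1831 in WT, so its ΔcIDR and WT libraries overlapped widely. A 136-bp locus on chromosome 8, 72073495 to 72073630, had 824 and 1031 reads in ΔcIDR, 1318 and 1300 in KO, and 1045 and 955 in WT. Like the locus on chromosome 6 it had the most reads in KO but the highest deposited signal in ΔcIDR. KO minus WT was not called at either, at −0.07 ± 0.30 on chromosome 6 and −0.11 ± 0.31 on chromosome 8 (limma adjusted p = 0.95 and 0.919), and at 0.20 and 0.16 after centring (limma adjusted p = 0.371 and 0.56).

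A pair of satellites on chromosome 9, 122682170 to 122682229 and 122682420 to 122682478, sat under the same interval from 122681964 to 122683067. The first had 674 and 917 reads in ΔcIDR, 837 and 751 in KO, and 744 and 632 in WT, and the second had 698 and 868 in ΔcIDR, 912 and 893 in KO, and 895 and 613 in WT. On the deposited scale the first had a signal of 2247 and 2931 in ΔcIDR, 1647 and 1090 in KO, and 1723 and 1551 in WT. The second had 2327 and 2775 in ΔcIDR, 1795 and 1296 in KO, and 2073 and 1504 in WT. Both ΔcIDR libraries thus lay above the 4 others at both loci, while KO and WT overlapped. Only the first was called, between ΔcIDR and KO (0.94 ± 0.31 in log2, limma adjusted p = 0.0188). A 163-bp locus on chromosome 4, 147476592 to 147476754, had 618 and 708 reads in ΔcIDR, 632 and 587 in KO, and 793 and 562 in WT. The locus among the 8 with the widest gap was a 183-bp satellite on chromosome 18, with 959 and 858 reads in ΔcIDR, 496 and 475 in KO, and 634 and 607 in WT. The genotypes did not overlap there, and the difference between ΔcIDR and KO was 1.85 ± 0.31 in log2 (limma adjusted p = 4.8e-07) and 1.23 after centring. Its difference between KO and WT was −0.85 ± 0.31 (limma adjusted p = 0.122), which was called after centring, at −0.58 ± 0.14 (limma adjusted p = 0.0125).

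Long arrays showed another order of genotypes. The 9 loci of 5000 bp or more had 29 and 24 reads in ΔcIDR, 138 and 293 in KO, and 68 and 46 in WT. ΔcIDR was lowest, KO highest, and no pair of genotypes overlapped. In RPKM over repeat reads the log2 difference was 1.67 ± 0.69 for KO minus WT, −1.04 ± 0.32 for ΔcIDR minus WT and −2.71 ± 0.65 for ΔcIDR minus KO (SE, n = 2 per genotype). Nearly all of these reads came from 2 loci, and 4 of the 9 had no read at all.

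One is the 38412-bp satellite at the assembled start of chromosome 9, 3000003 to 3038414, the longest tested locus, at the end where mouse chromosomes carry their centromere. It had 19 and 10 reads in ΔcIDR, 84 and 135 in KO, and 41 and 24 in WT. Both KO libraries lay above all others. The log2 difference was 1.24 ± 0.44 for KO minus WT (limma adjusted p = 0.098), not called, and after centring 1.51 ± 0.37 (limma adjusted p = 0.0183). For ΔcIDR minus KO it was −1.95 ± 0.44 (limma adjusted p = 0.000279), and −2.56 ± 0.37 after centring (limma adjusted p = 4.4e-05), and without the second ΔcIDR library the deposited-scale call was lost (limma adjusted p = 0.0959). ΔcIDR minus WT was −0.71 ± 0.44 (limma adjusted p = 0.566).

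The other is a 46537-bp satellite on an unplaced scaffold, 67916 to 114452, picked after its values were seen. It had 5 and 10 reads in ΔcIDR, 49 and 147 in KO, and 20 and 18 in WT. In a fit that included the scaffolds it was higher in KO than in WT by 1.62 ± 0.48 (limma adjusted p = 0.0351) and lower in ΔcIDR than in KO by a log2 difference of −2.53 ± 0.48 (limma adjusted p = 1.3e-05). ΔcIDR minus WT was −0.91 ± 0.48 (limma adjusted p = 0.511). Both loci have under 1 read per 100 bp in each KO library.

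**Figure D5:**
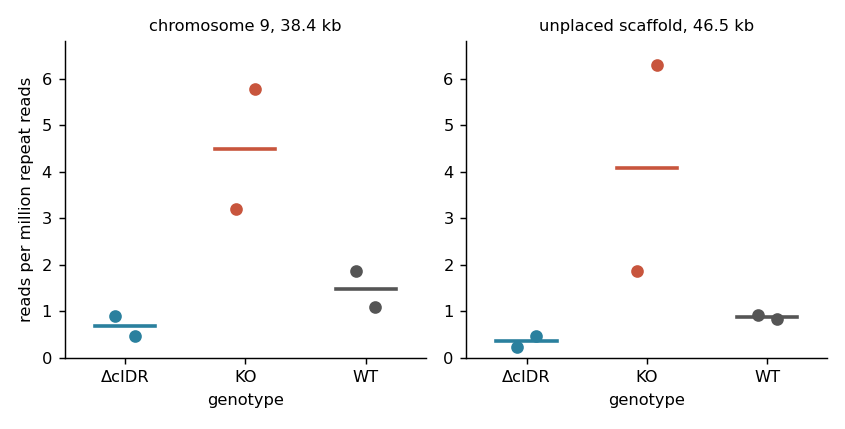
RPM, with all repeat reads as the total, in each library at the 38412-bp satellite on chromosome 9 (left) and the 46537-bp satellite on an unplaced scaffold (right), with ΔcIDR, KO and WT from left to right (points, 2 libraries per genotype; bars, means). KO is highest at both loci, its 2 libraries differ widely at the scaffold locus (1.87 and 6.30), and ΔcIDR lies below WT at both.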

How the data were processed

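RNA from the chromatin-bound fraction was depleted of ribosomal RNA, given m6A spike-in RNA, fragmented and immunoprecipitated, per the labels' protocols. Libraries were stranded. Tools listed in the submitters' processing notes are HISAT2, featureCounts, MACS2, fastp, Picard, SAMtools and bedtools, on GRCm39, and their versions and roles are not given in the sources used here. The deposited signal is whole reads times 1 factor per library (100% of values whole within 1e-06). The authors' intervals were used only for overlap, with bedtools 2.31.1. Whether a start counts from 0 or 1 is not stated.

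Autosomal loci with a mean of at least 10 reads were tested with limma 3.58.1 (R 4.3.3) on log2 of signal plus 2, 1 mean per genotype, a trend in the prior variance and Benjamini-Hochberg adjustment over all 379986 loci, with calls at 0.05. The prior weighed heavily in the SE of a locus. For KO minus WT it was 0.303 at the chromosome 4 locus at 145263536, with 1615 and 1465 WT reads. It was also 0.303 at the chromosome 14 locus at 75565034, with 1218 and 1831. SEs of shares and RPKM come from the libraries alone. Log2 differences on this scale understate the change of low loci. Families needed a mean of at least 100 reads. edgeR 4.0.16 on whole reads was an alternative, as were other scales, pseudocounts of 0.5 and 10, minimum means of 1 and 30 reads, the replicate number as a block and leaving out each library. Tables and figures used Python 3.11.15, pandas 2.3.3, numpy 2.4.6 and matplotlib 3.10.9, and the fits were tested on simulated data.

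Named loci were the 8 with the most reads, the longest tested locus, and up to 5 with the largest change per comparison and direction among called loci whose libraries did not overlap, or, with fewer than 3 such loci in a comparison, the 3 with the smallest p. The members, classes and rules were chosen with earlier results of these data known. The labels tie no replicate numbers together, so the reported fit has no block. Counting error is the only error that depth speaks to here. Input levels, gene names and sequences were not analysed here.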

Additional observations from a re-analysis of the deposited data

How the results depend on the processing

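The 106 satellite loci called between KO and WT became 20 with a minimum mean of 1 read, 70 with one of 30 reads and 70 with the replicate block (69 lower, 1 higher), and 8 to 298 when 1 library was left out (42 to 135 centred, where the values were 42, 42 and 45 without the first KO, the second KO and the second WT library). Against the 0 calls between ΔcIDR and WT there were 8 on the ERCC scale, all lower, 1 with edgeR, 2 with edgeR and TMM, 1 with a pseudocount of 10, 1 with scaffolds included, and 0 to 37 with 1 library left out (0 to 3 centred). The 539 calls between ΔcIDR and KO became 271 when centred, 296 on the ERCC scale, 285 with TMM, 306 and 317 with minimum means of 1 and 30 reads, 448 with the block, 233 with the block centred, and 111 to 767 with 1 library left out (100 to 282 centred: 150 and 215 without a ΔcIDR, 100 and 125 without a KO, and 282 and 268 without a WT library). The calls between ΔcIDR and WT described above, made when either KO library was left out, stood close to the share of all loci. The minimum means also changed the number of satellite loci tested, to 7174 with 1 read and 715 with 30 reads. Between KO and WT, 0.279% and 9.79% of these were called (all loci 0.156% and 4.44%), against 5.54% in the reported fit (all loci 2.73%). Between ΔcIDR and KO the shares were 4.27% and 44.3% (all loci 3.77% and 32.1%), against 28.2% (all loci 20.3%). The lower counts at 30 reads were thus higher shares. Same-numbered libraries deviated with correlations of 0.02 (KO and WT), −0.21 (ΔcIDR and WT) and −0.02 (ΔcIDR and KO) over the tested satellite loci. The numbers were thus not taken as pairs. A block with the WT numbers crossed was tried after seeing the data. It gave 133 calls between KO and WT (6.95%, all loci 3.67%) and 0 between ΔcIDR and WT (all loci 0.102%). Between ΔcIDR and KO it gave 600 (31.3%, all loci 23.3%). Centred fits with a block or with 1 library left out, and scaffolds, were also added after seeing the data.

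The summed signal of ΔcIDR minus WT turned to −0.060 when centred and to −0.24 on the ERCC scale (limma adjusted p = 0.029). ΔcIDR minus KO was 0.11 when centred, −0.18 on the ERCC scale, 0.15 as a share of repeat reads and 0.88 with the block (limma adjusted p = 0.0747), and 0.62 to 1.14 with 1 library left out. KO minus WT ran from −0.72 to −0.20 with 1 library left out and was called without the first KO library, as were 53 of 53 families, and ΔcIDR minus WT ran from 0.32 to 0.51 and was called when either KO library was left out, as were 49 of 53 families each time. Counting a locus as under an interval only where 50% of it was covered gave 30.9% of reads in ΔcIDR, 26.7% in KO and 29.998% in WT, and leaving out the locus with the most reads gave 32.2% in ΔcIDR, 28.3% in KO and 31.5% in WT. Over 25 results for named loci, 515 alternatives kept their side of the threshold, 75 lost the call, 14 gained it and 0 changed sign. Loci named for a large change had been picked as called and non-overlapping in these same libraries. A change of sign was nearly closed off by that choice, so the count of 0 is no measure of stability. The cause of the shifts between settings was not tested. Loci near 10 reads, 2 libraries per genotype and 814 to 1870 m6A spike-in reads per library limit what could be called.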

Other observations

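Beside the long array, the same unplaced scaffold carries a 139-bp satellite under an interval, 46239 to 46377, whose replicates disagreed in every genotype. It had 11 and 90 reads in ΔcIDR, 10 and 339 in KO, and 709 and 68 in WT. The fit that included the scaffolds called it lower in ΔcIDR and in KO than in WT, at −2.32 ± 0.38 and −2.35 ± 0.38 in log2 (limma adjusted p = 3.9e-05 and 1.3e-06), although the ranges of all 3 genotypes overlap. A 703-bp satellite between it and the long array, 60179 to 60881, had 409 and 330 reads in ΔcIDR, 318 and 289 in KO, and 298 and 429 in WT, which on the deposited scale is a signal of 1364 and 1055 in ΔcIDR, 626 and 419 in KO, and 690 and 1053 in WT. KO lay below both other genotypes, with a log2 difference of 1.22 ± 0.32 for ΔcIDR minus KO (limma adjusted p = 0.00263) and of −0.73 ± 0.32 for KO minus WT (limma adjusted p = 0.238), the second not called. These loci were chosen after their values were seen.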
